A study of Mus musculus with 6 samples.

Results

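The complementarity-determining region 3 (CDR3) of the T cell receptor β chain is the loop that meets the peptide, and it is encoded where a V gene, a D gene and a J gene have been joined. Described here are the CDR3 that hold the amino acids Gly-Gln-Gly (GQG) or Asp-Arg-Gly (DRG), which are reading frames of the mouse D-beta-1 gene. They were chosen by sequence alone. A CDR3 had to carry no stop or frame mark, begin with C, end with F or W, hold GQG or DRG starting at position 5 or later counted from the first C, and hold neither Asp-Trp-Gly (DWG) nor Gly-Leu-Gly (GLG), which are frames of D-beta-2. A clonotype was a combination of V gene, J gene and CDR3 amino acids. Of 177503 distinct clonotypes that run from C to F or W, 9970 met the rule (5.62%), with 8767 distinct CDR3. They are called D-beta-1 type below, which describes residues and does not show that the gene was used.

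The libraries came from 2 C57BL/6 mice. Each mouse carried 2 tumors of MO4, a B16F10 melanoma line that expresses ovalbumin, after injection of 100000 cells under the skin of each hindlimb. Interferon-α-producing myeloid cells grown from induced pluripotent stem cells and named IFN-α-iPSC-pMC (1000000 per injection) were placed beside the right tumor 5 times between day 5 and day 13, and RNA was taken on day 14. The treated tumor is the injected one, the distant tumor is the one on the other side, which was not injected itself but grew in a treated mouse, and the spleen is the third tissue, so that no library comes from an untreated mouse. There are 2 libraries per tissue, numbered 1 and 2, and only T cell receptor sequences were read, so no marker of another cell type could be checked.

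D-beta-1 and D-beta-2 are the only D genes of the mouse β locus. D-beta-1 lies upstream of both J clusters and can join to TRBJ1 or TRBJ2 genes, whereas D-beta-2 lies between the clusters, downstream of TRBJ1, and in ordinary rearrangement joins to TRBJ2 genes. The D gene can be read in any of its frames, and it is trimmed and flanked by added bases, so only part of the CDR3 made with a D gene keep a readable trace of it.

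The germline sequences show why the motifs tell the D genes apart. Both genes lie on the + strand of chromosome 6 (GRCm38, GENCODE M21 transcripts), TRBD1 at chr6:41533201-41533212 with 12 bases and TRBD2 at chr6:41542163-41542176 with 14 bases, and each is a coding D segment with no intron or UTR. In the lines below, written 5′ to 3′, the capital marks the first base at which they differ, A6T counted from the first base of TRBD1.
TRBD1: gggacAgggggc
TRBD2: gggacTgggggggc
From the first base both read GTGG. From the second base TRBD1 reads GQG and TRBD2 reads GLGG, and from the third base TRBD1 reads DRG and TRBD2 reads DWGG. Beyond the marked base TRBD2 has 2 further bases. None of the 4 motifs GQG, DRG, DWG and GLG is present in the CDR3 part of any of the 23 V and 12 J genes in the files (0 genes), so a member needs at least 1 residue from the join.

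Among the members, 5249 clonotypes held GQG, 4764 held DRG and 43 held both. GQG began at position 6 in 52.7%, at position 7 in 28.2% and at position 5 in 13.9% of its clonotypes. DRG began at position 6 in 47.4%, at position 5 in 24.6% and at position 7 in 23%. The motifs thus sat just after the end of the V gene. GQG lay wholly between the germline V and J ends in 99.6% of cases, with a mean of 1.19 residues between the V end and the motif and 1.14 between the motif and the J start. DRG did so in 87.4%, and in 12.0% its first residues matched the end of the germline V gene.

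The residues beside the motif were uneven. P stood before GQG in 27.1% of clonotypes, and R stood before DRG in 29.8%. The D-beta-2 motifs had nearly the same neighbors on that side, with P before GLG in 26.9% and R before DWG in 28.6%. On the other side the motifs parted. G followed GLG in 43.5% and DWG in 32.3%, and the germline TRBD2 has a codon for G there. After GQG the leading residue was A (21.4%), and the germline TRBD1 ends there in the bases GC, which with any further base code A. After DRG the leading residues were G (14.4%) and R (12.4%). These are shares of distinct clonotypes pooled over the 6 libraries and have no replicate error.

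The 6 libraries held 42320 to 135599 reads without a stop or frame mark, of which 41115 to 132494 were in CDR3 from C to F or W. Shares of reads and clonotypes below are of the latter unless said otherwise, and 1 read is 0.000755% to 0.00243% of a library. A count of 0 allows up to 3 reads, 0.00226% to 0.00730%. The labels name no molecular identifiers, so reads are not independent molecules, and Wilson 95% confidence intervals and floors cover counting error only. A read share also cannot tell more cells of a clone from more receptor RNA per cell.

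D-beta-1 type CDR3 made up a smaller share of clonotypes in every tumor than in either spleen. The share was 5.23% in treated tumor 1 (586 clonotypes), 4.98% in treated tumor 2 (327), 4.70% in distant tumor 1 (465) and 4.32% in distant tumor 2 (398). It was 5.75% in spleen 1 (3599) and 5.90% in spleen 2 (5257). The tumors averaged 4.81% ± 0.392 (SD, n = 4) and the spleens 5.82% ± 0.102 (SD, n = 2), a difference of -1.02 percentage points. The groups did not overlap, and an exact two-sided permutation of 4 against 2 libraries returned p = 0.0667, the smallest p that this design allows, so it cannot pass 0.05. With clonotypes of at least 2 reads the difference was -0.203 (exact two-sided permutation p = 0.733) and the groups overlapped. The tumors of a mouse are not independent samples, and p-values here measure the spread between libraries.

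By reads the tumors spread on either side of the spleens. The share of reads was 8.08% in treated tumor 1, 5.78% in treated tumor 2, 4.78% in distant tumor 1 and 4.0% in distant tumor 2, against 5.73% and 5.81% in spleens 1 and 2. The tumor mean of 5.66% ± 1.77 (SD, n = 4) differed from the spleen mean of 5.77% ± 0.0558 (SD, n = 2) by -0.111 percentage points (exact two-sided permutation p = 0.933). That is less than the spread among tumors, and the sign turned without distant tumor 1 (0.182) or distant tumor 2 (0.440). In distant tumor 1 a single clonotype with none of the motifs held 15201 of the 80662 reads, and with the 10 most abundant clonotypes of each library left out the difference was 0.766.

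Treated tumors held more D-beta-1 type reads than distant tumors of the same number. The treated mean was 6.93% ± 1.63 and the distant mean 4.39% ± 0.548 (SD, n = 2 each), a difference of 2.54 percentage points, with both treated libraries above both distant ones. Without the V genes that have a germline D (named below) it was 1.64, and the groups overlapped (exact two-sided permutation p = 1.0). An exact two-sided permutation of 2 against 2 libraries returned p = 0.333, the smallest p it allows. The difference was 1.39 without treated tumor 1, 3.69 without treated tumor 2 and 1.35 when motifs were counted from position 6 on. CDR3 with DWG or GLG from position 5 on and neither GQG nor DRG leaned the same way. They took 6.05% and 6.93% of reads in the treated tumors and 4.13% and 5.46% in the distant tumors (numbers 1 and 2). A higher share of reads in treated tumors was thus not particular to the members. In shares of clonotypes the treated minus distant difference of D-beta-1 type CDR3 was 0.598 percentage points (5.11% ± 0.179 against 4.51% ± 0.269, SD, n = 2 each, exact two-sided permutation p = 0.333). It was 0.116 without those V genes, 0.156 with motifs from position 6 on and 0.371 with at least 2 reads.

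That difference in clonotypes moved with small variants of large clones. A near variant was taken to be a clonotype that differs by 1 residue from a clonotype with the same V gene, J gene and length and at least 50 times its reads. Near variants were 29.7% and 30% of the D-beta-1 type clonotypes in the treated tumors, 13.3% and 5.78% in the distant tumors (numbers 1 and 2), and 0% in the spleens (0 of 3599 and 0 of 5257). The rule needs a clonotype of at least 50 reads, and the largest members of spleens 1 and 2 had 26 and 44. Of the CDR3 with none of the motifs only 4 and 6 had 100 or more reads there. The 0% thus follows largely from the rule, which acts almost only in the tumors. Without near variants the treated minus distant difference was -0.0325 percentage points for clonotypes (exact two-sided permutation p = 0.667), whereas for reads it was 2.5. Whether near variants are T cells or errors of amplification and sequencing was not tested.

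**Figure D1:**
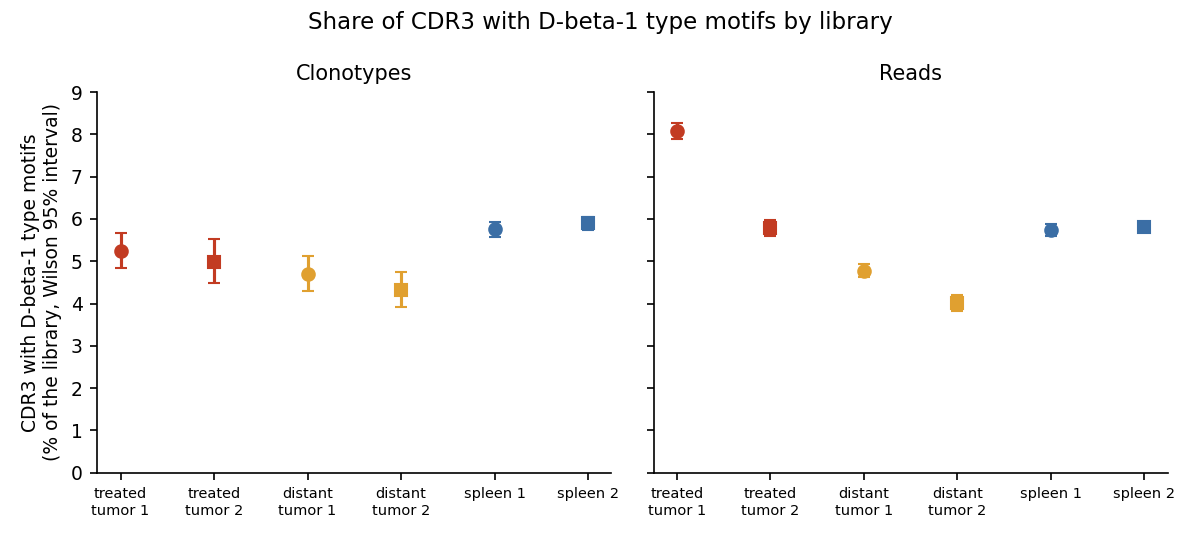
Share of CDR3 with D-beta-1 type motifs in each library, as a percent of clonotypes (left) and of reads (right); points are libraries and bars are Wilson 95% confidence intervals, which cover counting error only. By clonotypes all 4 tumors (4.32% to 5.23%) sit below the spleens (5.75% and 5.90%), and by reads treated tumor 1 (8.08%) is the highest library and distant tumor 2 (4.0%) the lowest.

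The 2 motifs did not move alike. GQG members took 5.08% and 4.0% of reads in the treated tumors, 3.11% and 1.93% in the distant tumors and 2.90% and 3.0% in the spleens (numbers 1 and 2). DRG members took 3.03% and 1.78%, 1.68% and 2.09%, and 2.86% and 2.83%. GQG was thus higher in the treated than in the distant tumor of each number, whereas DRG was higher in number 1 and lower in number 2.

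To set the motifs against all other residues, every 3-residue stretch from position 5 on was counted, relative to all reads without a mark, and tested with edgeR's quasi-likelihood test in a fit of all 6 libraries. Of 2718 stretches tested by reads, 0 passed an adjusted p of 0.05 between treated and distant tumors (0%, with 293 at an unadjusted p under 0.05) and 0 passed between tumors and spleens (0%, with 440 at an unadjusted p under 0.05). DESeq2 called 52 and 11 on the same counts. The log2 fold change between treated and distant tumors was 0.85 ± 0.42 (SE) for GQG (edgeR adjusted p = 0.490) and 0.35 ± 0.45 for DRG (edgeR adjusted p = 0.782), beside a median of -0.07 over all stretches. Of the D-beta-2 motifs, GLG stood higher than GQG, at 1.28 ± 0.52 (edgeR adjusted p = 0.460). DWG stood at -0.20 ± 0.44 (edgeR adjusted p = 0.886). The value for GQG was 0.38 with each clonotype counted once, 0.096 when near variants were also left out, and 0.54 without distant tumor 2. Between tumors and spleens it was 0.19 ± 0.36 for GQG (edgeR adjusted p = 0.813) and -0.43 ± 0.38 for DRG (edgeR adjusted p = 0.595), beside a median of -0.81. Scaling by TMM moved that median to 0.11, GQG to 1.17 (edgeR adjusted p = 0.496) and DRG to 0.49. Both lay above the median stretch under either scaling, while the sign of DRG turned.

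With each clonotype counted once, 266 of 1309 stretches (20.3%) differed between tumors and spleens, 197 higher and 69 lower in tumors. DRG fell by 0.62 ± 0.16 (SE, log2 scale, edgeR adjusted p = 0.0355). GQG stood at -0.26 ± 0.14 (edgeR adjusted p = 0.189), and without near variants at -0.44 ± 0.12 (edgeR adjusted p = 0.0224). The D-beta-2 motifs also fell, DWG by 0.67 (edgeR adjusted p = 0.0320) and GLG by 0.51 (edgeR adjusted p = 0.0448), as did GTG, the frame that the D genes share, by 0.71 (edgeR adjusted p = 0.0268). With the replicate number as a block 163 stretches were called, and DRG (edgeR adjusted p = 0.0632) and GLG (edgeR adjusted p = 0.0851) were not among them, while DWG and GTG were (edgeR adjusted p = 0.0475 and 0.0444).

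The J partner was where D-beta-1 type CDR3 differed most from D-beta-2 type CDR3, meaning those with DWG or GLG from position 5 on and neither GQG nor DRG (12493 distinct clonotypes). Of the D-beta-1 type clonotypes, 42.3% had a TRBJ1 gene in treated tumor 1, 33.6% in treated tumor 2, 53.8% in distant tumor 1, 43.7% in distant tumor 2, 43.9% in spleen 1 and 43.5% in spleen 2. Of the D-beta-2 type clonotypes the TRBJ1 share was between 1.24% and 4.22%. The ranges are far apart, and every library showed the difference. The means were 43.5% ± 6.39 and 2.05% ± 1.11 (SD, n = 6 each), a difference of 41.4 percentage points that was positive in 6 of 6 libraries (exact sign-flip permutation test over libraries, two-sided, p = 0.03125, adjusted p = 0.0469 over 6 tests). With 6 libraries 0.03125 is the smallest p this test can give, and the libraries come from 2 mice. The adjusted p also moves with the other tests of the family, and it was 0.0521 with clonotypes of at least 2 reads and 0.0625 without near variants, at the same unadjusted p in this exact test.

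Against CDR3 with none of the 4 motifs the lead in TRBJ1 was smaller. Those clonotypes had a TRBJ1 share of 34.2% ± 2.09 (SD, n = 6), which is 9.29 percentage points lower and lower in 6 of 6 libraries (exact sign-flip permutation test, two-sided, p = 0.03125, adjusted p = 0.0469). The difference was steady in the spleens, at 10.1 and 10.4, and ran from 1.53 in treated tumor 2 to 15.6 in distant tumor 1. Without near variants the difference in treated tumor 2 was -0.996, and the call was lost (mean 9.44, exact permutation adjusted p = 0.075, two-sided, n = 6). With DRG alone it was 7.15 (exact permutation adjusted p = 0.075, two-sided, n = 6).

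By motif, the TRBJ1 share of clonotypes was 45.6% ± 9.72 for GQG and 41.3% ± 7.62 for DRG (SD, n = 6 libraries each). It was 1.94% ± 1.61 for GLG and 2.03% ± 0.743 for DWG. GTG, which both D genes encode and which is taken here from CDR3 without the other 4, lay between them at 26.8% ± 3.66, below the 34.6% ± 2.16 of CDR3 with none of these 5 motifs. GQG and DRG did not differ beyond their spread, and in treated tumor 1 DRG had the higher share (53.0% against 34.7%) while in distant tumor 1 GQG did (61.3% against 45.1%).

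**Figure D2:**
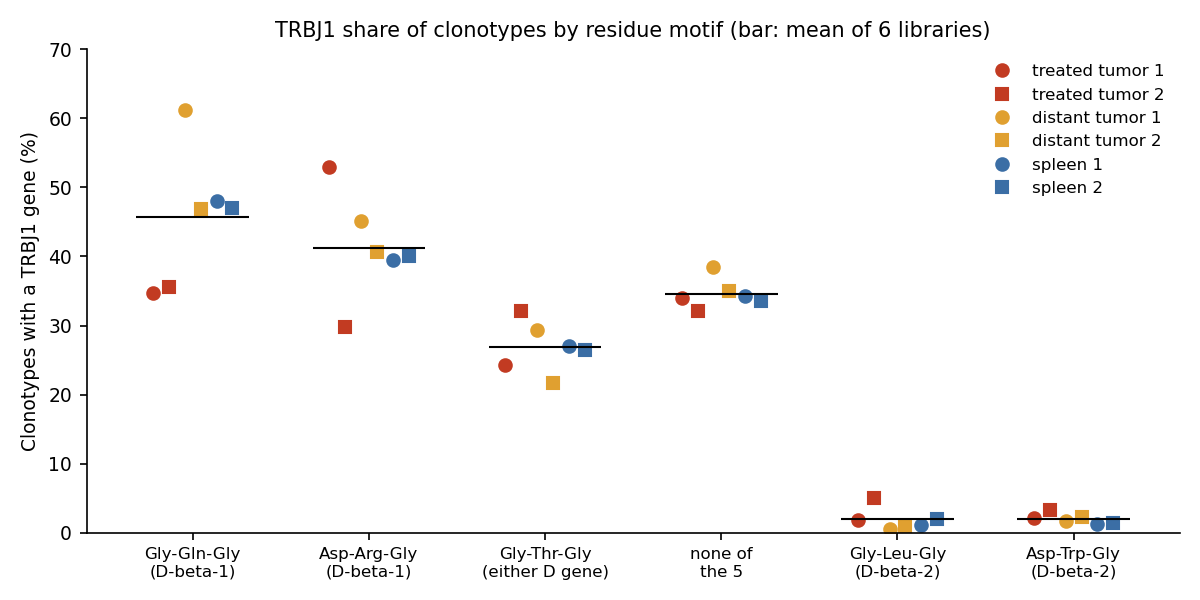
Percent of clonotypes with a TRBJ1 gene, by the residue motif they hold; each point is a library and each bar the mean of 6 libraries. Gly-Gln-Gly and Asp-Arg-Gly have means of 45.6% and 41.3%, Gly-Leu-Gly and Asp-Trp-Gly lie at or below 5% in every library, and Gly-Thr-Gly lies between at 26.8%.

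Seen from the J side, members were 6.84% ± 1.10 of clonotypes with a TRBJ1 gene and 4.31% ± 0.624 of those with a TRBJ2 gene (SD, n = 6). D-beta-2 type CDR3 were 0.378% ± 0.169 and 9.04% ± 1.60. There were thus 7.86 to 35.7 D-beta-1 type clonotypes for each D-beta-2 type clonotype among TRBJ1 genes, and 0.406 to 0.682 among TRBJ2 genes. The reversal held in each library.

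All 6 TRBJ1 genes had a higher mean share of members than any of the 6 TRBJ2 genes. Among TRBJ1 genes it was 8.58% ± 1.63 for TRBJ1-4, 7.61% ± 5.28 for TRBJ1-6, 7.06% ± 2.29 for TRBJ1-2, 6.37% ± 1.26 for TRBJ1-1, 6.17% ± 2.18 for TRBJ1-5 and 5.99% ± 2.16 for TRBJ1-3 (SD, n = 6 libraries each). Among TRBJ2 genes it was 4.99% ± 1.5 for TRBJ2-1, 4.72% ± 0.943 for TRBJ2-7, 4.53% ± 1.80 for TRBJ2-3, 4.04% ± 0.907 for TRBJ2-5, 3.27% ± 1.02 for TRBJ2-4 and 3.01% ± 1.69 for TRBJ2-2. Neighbors in this order lie within each other's spread, and single libraries cross it. TRBJ1-6 ranged from 1.51% to 15.7%, the highest being distant tumor 1, where 27 of its 90 members were near variants and the share without them was 13.4%. Without near variants the 6 TRBJ1 means (6.32% to 8.05%) still all lay above the 6 TRBJ2 means (3.28% to 4.54%).

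The motifs were not spread alike over the TRBJ1 genes. GQG was in 6.01% ± 2.60 of TRBJ1-4 clonotypes and DRG in 2.58% ± 1.38. In TRBJ1-1 the order was the other way round, with 2.83% ± 1.28 for GQG and 3.55% ± 0.602 for DRG (SD, n = 6 each). By number of members the leading partner was TRBJ2-7, with 17.7% ± 2.51 of the members of a library, and it held 30.4% ± 2.41 of D-beta-2 type and 18.8% ± 0.850 of the CDR3 with none of the 4 motifs.

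By V gene, the share of members was highest in TRBV13-3. Among the 19 V genes with at least 100 clonotypes in every library, it was 8.97% ± 2.38 in TRBV13-3 (SD, n = 6, range 6.79% to 13.5%), 6.29% ± 1.56 in TRBV13-2 and 6.04% ± 2.32 in TRBV31. It was lowest in TRBV20 at 2.99% ± 1.98, TRBV15 at 3.15% ± 1.67 and TRBV4 at 3.20% ± 0.949. The highest library of TRBV13-3 was treated tumor 2, where 33 of 62 members were near variants. Without near variants TRBV13-3 stood at 8.11% ± 0.754 with a range of 7.20% to 9.32%, above the other 18 by mean, and TRBV13-2 at 5.74% ± 0.871, behind TRBV1 at 5.97% ± 1.23. TRBV31, at 5.48% ± 2.45, was then no longer among the 3 highest. Its highest library was treated tumor 2 (10.4%), and in the spleens it had 4.07% and 4.45%, below the 5.75% and 5.90% over all V genes. TRBV13 genes are close relatives, so reads could have been split between them.

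**Figure D3:**
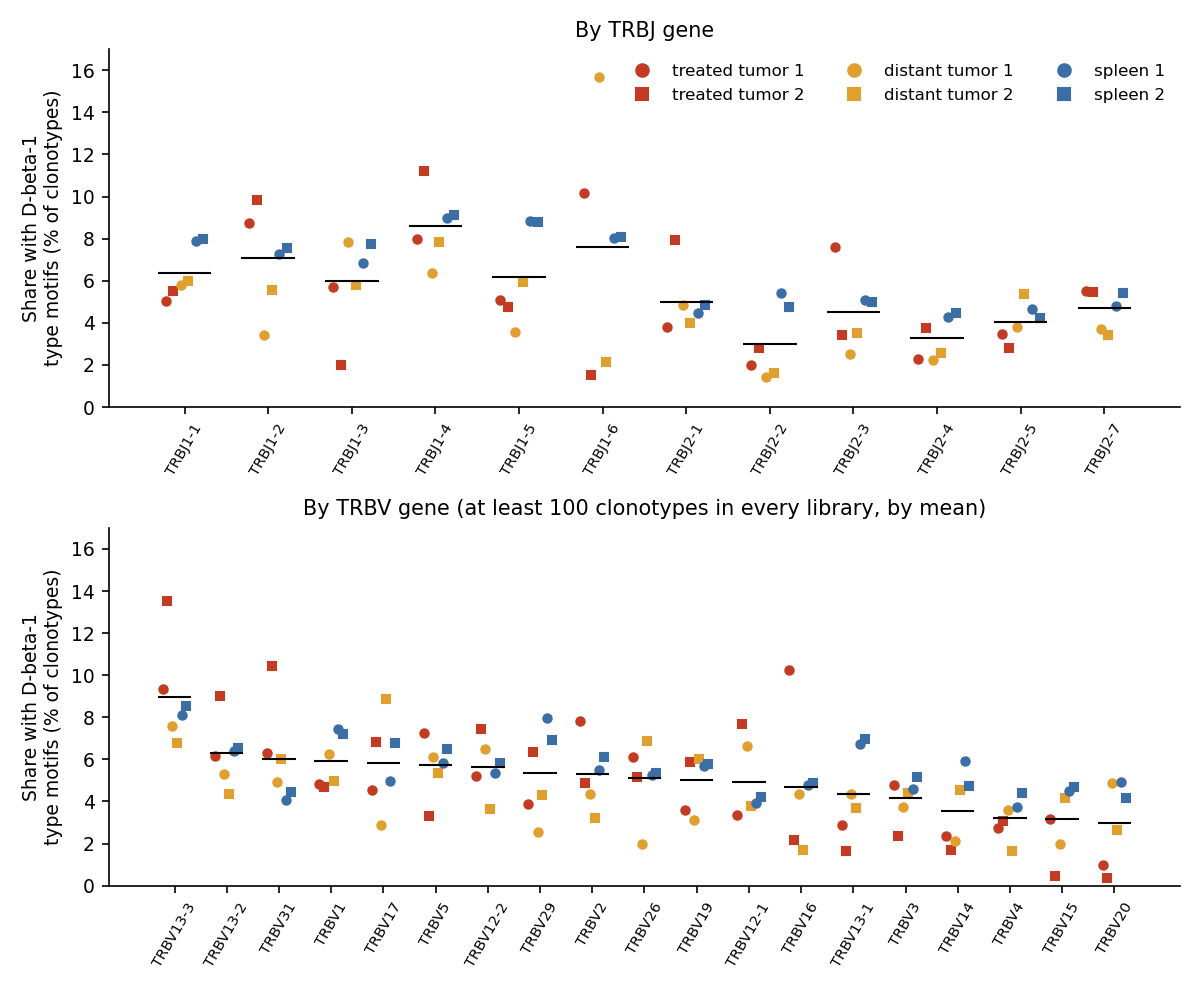
Percent of the clonotypes of each TRBJ gene (top) and each TRBV gene with at least 100 clonotypes in every library (bottom) that are D-beta-1 type; each point is a library and each bar the mean of 6 libraries. The TRBJ1 means (5.99% to 8.58%) all lie above the TRBJ2 means (3.01% to 4.99%), and TRBV13-3 leads the V genes at 8.97%.

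Of the 23 V genes, 3 bring a germline D at position 5 (TRBV13-1, TRBV13-2 and TRBV13-3), so that DRG can begin there with the V gene's own residue. In these V genes 53.6% of the 1408 DRG clonotypes began at position 5. In the 8 V genes that end in the spare bases GA, which with a further base code D or E, it was 11.8% of 1692, and in the other 12 it was 13.0% of 1664. The DRG share of clonotypes was 2.95% ± 1.08 in the 3 genes and 2.14% ± 0.408 in all others (SD, n = 6), a difference of 0.806 percentage points in the same direction in 5 of 6 libraries that did not pass (exact sign-flip permutation test, two-sided, p = 0.0938, adjusted p = 0.1125). With motifs counted from position 6 on, the difference was -0.689 (exact permutation adjusted p = 0.0375, two-sided, n = 6). That rule removes the starts at position 5, a much larger part of the DRG clonotypes in the 3 genes than in the others. The turn of sign is thus tied to the rule, and this test cannot show a difference between V genes. The TRBV13 genes did not act as 1 group, since TRBV13-1 had a member share of 4.38% ± 2.11.

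D-beta-1 type CDR3 were longer than those with none of the 4 motifs. Their mean length was 14.4 ± 0.0939 residues against 13.8 ± 0.0571 (SD, n = 6 libraries), a difference of 0.623 residues in 6 of 6 libraries (exact sign-flip permutation test, two-sided, p = 0.03125, adjusted p = 0.0469). A member needs room for a whole motif from position 5 on, whereas CDR3 with none of the motifs do not. The rule itself thus favors longer members, and this test cannot separate a difference in length from the rule. D-beta-2 type CDR3 were longer still, at 14.9 ± 0.0777. Of the members, 32.1% had 14 residues and 31.3% had 15.

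In clone size, D-beta-1 type clonotypes were less often seen in a single read than the CDR3 with none of the 4 motifs. The share seen in 1 read was 70.5% against 77.2% in treated tumor 1, 77.7% against 81.4% in treated tumor 2, 61.9% against 73.2% in distant tumor 1 and 63.3% against 70.1% in distant tumor 2. In the spleens it was 70.5% against 72.4% and 71.4% against 73.0%. Members were lower in 6 of 6 libraries, by 5.35 percentage points on average (69.2% ± 5.78 against 74.6% ± 4.06, SD, n = 6, exact sign-flip permutation test, two-sided, p = 0.03125, adjusted p = 0.0469). The gap was -7.14 ± 3.11 in tumors and -1.78 ± 0.199 in spleens, and the test of that difference returned p = 0.2 by exact two-sided permutation of 4 against 2 libraries. Without near variants the gap was -10.3 ± 2.34 in tumors and -1.76 ± 0.186 in spleens, with no overlap (exact two-sided permutation p = 0.0667, the smallest possible). The near variant rule hardly reaches the spleens, so this test cannot separate a difference between tissues from the filter. D-beta-2 type clonotypes were seen in 1 read less often than members in each library, with a mean of 64.7% ± 6.38.

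At the upper end, clonotypes of 10 or more reads were 13.0% of members in treated tumor 1, 14.4% in treated tumor 2, 14.6% in distant tumor 1, 9.05% in distant tumor 2, 0.333% in spleen 1 and 0.228% in spleen 2. Among CDR3 with none of the 4 motifs they were 11.5% and 8.84%, 10.3% and 6.22%, and 0.377% and 0.317%. Members were thus above in each tumor and below in each spleen, a difference that was not tested. The spleen shares rest on only 12 members in each library. Of D-beta-2 type clonotypes in tumors 8.68% to 18.5% had 10 or more reads, so these also stood above the CDR3 with none of the motifs. In spleens 1 and 2 it was 0.288% and 0.363%, below those CDR3 in spleen 1 and above them in spleen 2. Of the 100 most abundant clonotypes of a library, members numbered 11 in treated tumor 1, 9 in treated tumor 2, 7 in distant tumor 1, 6 in distant tumor 2 and 4 in each spleen. A mean member had 11.2, 9.72, 8.29 and 4.14 reads in treated 1, treated 2, distant 1 and distant 2, and 1.51 and 1.46 in the spleens. Among CDR3 with none of the 4 motifs the mean was 7.01, 8.13, 8.27 and 4.51 reads, and 1.51 and 1.48 in the spleens. By mean size members were thus above in the treated tumors, about equal in distant tumor 1 and below in distant tumor 2. The value of 8.27 includes a clonotype of 15201 reads.

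In the tumors a few clones carried much of the reads of every class. The 5 leading members took 39.4% of the members' reads in treated tumor 1, 29.3% in treated tumor 2, 42.6% in distant tumor 1 and 28.1% in distant tumor 2. In the spleens they took 1.75% and 1.53%. The 5 leading D-beta-2 type clonotypes took 15.6% to 55.3% of their class in tumors and 0.943% and 1.22% in spleens, and those of the much larger class with none of the motifs took 12.1% to 37.2% and 0.882% and 0.890%. The leading members are given next with their CDR3 where it has at most 14 residues, and by V gene, J gene and length where it is longer.

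In treated tumor 1 the leading member was TRBV16/TRBJ2-7 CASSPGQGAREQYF with 1006 reads (1.24% of the library, rank 7 of all clonotypes), and it was in no other library. It was followed by a TRBV5/TRBJ2-3 CDR3 of 15 residues with 480 reads and a TRBV12-2/TRBJ1-4 CDR3 of 15 residues with 394, both with GQG at position 6. The former had 3 reads in distant tumor 1, 4 in distant tumor 2 and 1 in spleen 2, and the latter was in no other library. Next came 2 TRBV13-2 clonotypes in which DRG begins at position 5, where TRBV13-2 has a germline D, TRBV13-2/TRBJ1-6 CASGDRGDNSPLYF with 366 reads and TRBV13-2/TRBJ1-2 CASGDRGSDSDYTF with 347. These last 2 were also in distant tumor 1, with 29 and 25 reads, and the former was in spleen 1 with 7.

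In distant tumor 1 a TRBV12-1/TRBJ1-6 CDR3 of 15 residues with GQG at position 6 led with 1061 reads (1.32%, rank 7). It had 44 reads in treated tumor 1 and 1 in spleen 2. A TRBV5/TRBJ2-1 CDR3 of 15 residues had 272 reads there and 28 in treated tumor 1, and a TRBV13-2/TRBJ1-2 CDR3 of 15 residues had 111 reads and 1 in each spleen. TRBV29/TRBJ1-3 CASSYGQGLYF, a short CDR3 of 11 residues, had 109 reads there, 24 in treated tumor 1 and 17 in spleen 1. TRBV16/TRBJ2-5 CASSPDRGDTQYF had 88 reads in distant tumor 1 and 19 in spleen 1. All 5 were thus also found in another tissue of number 1.

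In treated tumor 2 the leading members were TRBV13-3/TRBJ2-1 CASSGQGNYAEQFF with 238 reads (0.433%), a TRBV13-3/TRBJ2-1 CDR3 of 16 residues with 230 and TRBV13-2/TRBJ2-7 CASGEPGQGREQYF with 220. The last had 0 reads in distant tumor 2 and 1 read in spleen 2. A TRBV13-2/TRBJ2-7 CDR3 of 15 residues followed with 125 reads (5 in distant tumor 2 and 3 in spleen 2), and then TRBV26/TRBJ2-5 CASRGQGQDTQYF with 120. In distant tumor 2 the leader was TRBV31/TRBJ1-1 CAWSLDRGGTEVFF with 179 reads (0.435%), and it was also the leading member of spleen 2 with 44 reads (0.0332%, rank 14) and had 76 in treated tumor 2. In number 1 the same clonotype had 1 read in treated tumor 1, 0 in distant tumor 1 and 2 in spleen 1. It was thus high in all 3 tissues of number 2 and at or near 0 in those of number 1. The next members of distant tumor 2 were a TRBV17/TRBJ2-5 CDR3 with 113 reads, a TRBV5/TRBJ1-4 CDR3 with 80 and a TRBV5/TRBJ2-1 CDR3 with 47, each of 15 residues, and then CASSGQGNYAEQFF with 44.

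The leading member of spleen 1 was TRBV12-2/TRBJ1-3 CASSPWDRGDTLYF with 26 reads, and it had 40 in treated tumor 1. It was followed by a TRBV13-1/TRBJ2-4 CDR3 of 15 residues with 20 reads (13 in treated tumor 1), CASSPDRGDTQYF with 19, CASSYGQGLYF with 17 and a TRBV29/TRBJ1-4 CDR3 of 15 residues with 13 (22 in distant tumor 1). All 5 were thus also found in a tumor of number 1. Beside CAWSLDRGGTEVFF, spleen 2 held a TRBV16/TRBJ1-4 CDR3 of 15 residues with 24 reads, TRBV5/TRBJ2-7 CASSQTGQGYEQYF with 21 (23 in distant tumor 2), TRBV15/TRBJ1-3 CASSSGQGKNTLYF with 16 and TRBV2/TRBJ2-7 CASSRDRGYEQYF with 13. The last 2 were in no other library. The largest splenic member had 44 reads, where the leading members of the tumors had 179 to 1061.

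Treated and distant tumors of a number were compared clonotype by clonotype with Fisher's exact test, which compares 2 libraries and not the conditions. In number 1, 129 of 1006 members had the required 10 reads, and 121 of them differed (Benjamini-Hochberg adjusted p under 0.05), with 66 higher on the treated side and 55 on the distant side. Over all clonotypes tested, 95.7% differed, so the members' count is near the background. In number 2, 75 of 705 members were tested and 72 differed, 43 higher on the treated side and 29 on the distant side, where 94.0% of all clonotypes tested differed. The direction of these calls moved with the read minimum. At 5 reads it was 87 treated against 89 distant in number 1 and 43 against 64 in number 2, and at 50 reads it was 22 against 7 and 20 against 3. Over all clonotypes at 10 reads, 1223 were higher on the treated and 938 on the distant side in number 1, and 537 and 509 in number 2. Since the tested members were seen in treated and distant tumor together in 35 of 129 and 15 of 75 cases, most of these calls are clonotypes present in 1 tumor only. The same share over all clonotypes tested was not counted, so this cannot be read as a trait of the members.

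Most members were private, as were most CDR3 of any class. Of 9970, 9409 were in 1 library (94.4%, beside 94.7% of CDR3 with none of the 4 motifs and 92.9% of D-beta-2 type), 487 in 2, 58 in 3, 8 in 4, 5 in 5 and 3 in all 6. In libraries of both numbers there were 412 (4.13%), beside 5.50% of D-beta-2 type clonotypes and 3.94% of those with none of the 4 motifs. These shares are over distinct clonotypes and have no replicate error.

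The 3 members in all 6 libraries had 12 to 14 residues, and none of them had its highest count in a spleen. TRBV13-3/TRBJ2-1 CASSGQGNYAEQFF had 120, 71 and 12 reads in treated tumor, distant tumor and spleen 1 and 238, 44 and 4 in those of number 2. TRBV26/TRBJ2-5 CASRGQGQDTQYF had 214, 16 and 2 reads and 120, 10 and 9. TRBV2/TRBJ1-1 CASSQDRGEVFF had 37, 11 and 8 reads and 51, 19 and 12. Each had the most reads in the treated tumor of either number. The treated to distant ratio of shares of all reads without a mark, in numbers 1 and 2, was 1.67 and 4.08 for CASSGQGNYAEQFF, 13.2 and 9.06 for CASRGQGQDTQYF and 3.32 and 2.03 for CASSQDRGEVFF. All 6 comparisons passed Fisher's exact test (largest Benjamini-Hochberg adjusted p = 0.00817), as did 95.7% and 94.0% of all clonotypes tested, and they were picked for being shared, not for this ratio.

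The 5 members in 5 libraries showed other patterns. TRBV31/TRBJ1-1 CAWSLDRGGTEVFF is given above. TRBV17/TRBJ2-7 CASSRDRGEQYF had 24 and 43 reads in the distant tumors, 1 and 0 in the treated tumors and 2 and 10 in the spleens. TRBV26/TRBJ2-5 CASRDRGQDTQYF, which shares V and J gene with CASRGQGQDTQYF, had 44 and 34 reads in treated and distant tumor 1, 0 and 5 in those of number 2 and 1 and 3 in the spleens. TRBV3/TRBJ1-1 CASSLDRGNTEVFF and TRBV13-3/TRBJ2-7 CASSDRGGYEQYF had at most 24 and 9 reads in any library. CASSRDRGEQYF was higher in the distant tumor of each number, so shared members did not all lean to the treated side.

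**Figure D4:**
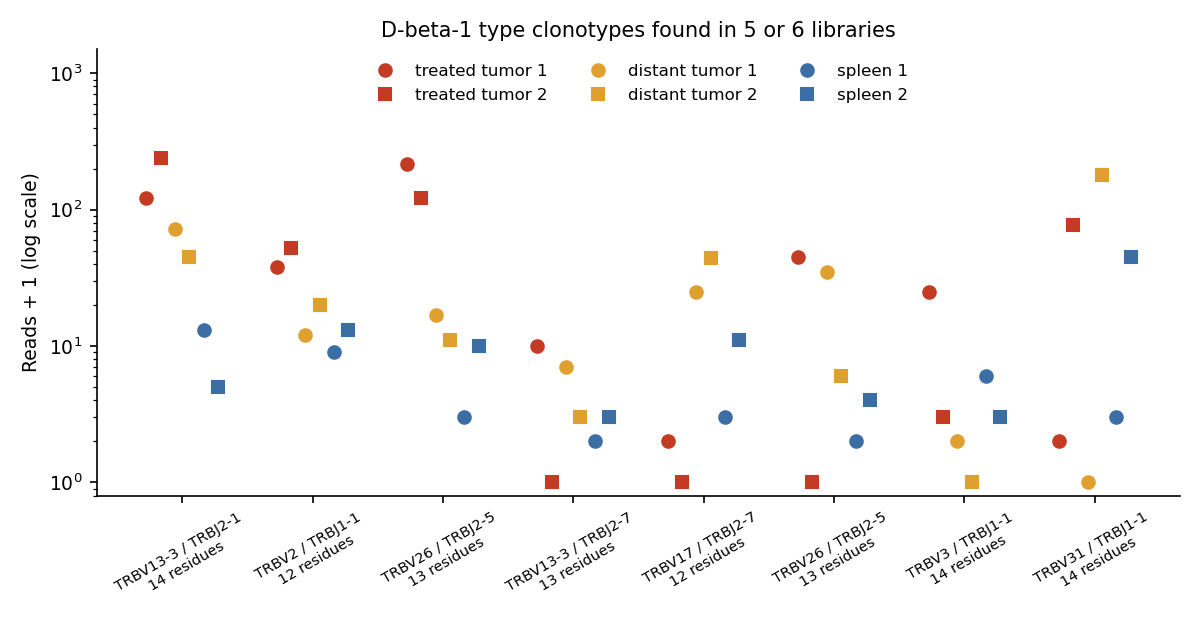
Reads of the 8 D-beta-1 type clonotypes found in 5 or 6 libraries, on a log axis of reads + 1; each point is a library and a point at 1 stands for 0 reads. The first 3, found in all 6 libraries, have their highest counts in the treated tumors (up to 238 reads), and TRBV31/TRBJ1-1 is high in the 3 tissues of number 2.

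Sharing between libraries mostly followed the number. Of the members of distant tumor 2, 19.6% were in spleen 2 and 9.30% in spleen 1, and of those of distant tumor 1, 12.7% were in spleen 1 and 7.31% in spleen 2, although spleen 2 is the deeper library. CDR3 with none of the 4 motifs did likewise, at 13.9% and 4.98% for distant tumor 2 and 7.80% and 4.55% for distant tumor 1. Treated and distant tumor shared 45 members in number 1 and 20 in number 2, against 14 between treated tumor 1 and distant tumor 2 and 6 between treated tumor 2 and distant tumor 1. For CDR3 with none of the 4 motifs these counts were 500 and 365, against 112 and 118, so following the number is no trait of the members. The 45 shared members carried 43.2% of the members' reads in treated tumor 1 and 54.5% in distant tumor 1. The 20 of number 2 carried 36.1% and 21%. For CDR3 with none of the 4 motifs the same shares were 40.8% and 46.9% in number 1 and 47.3% and 30.5% in number 2, so members were slightly above in number 1 and below in number 2. Of the members of treated tumor 2, 10.7% were in spleen 2 and 4.28% in spleen 1, whereas treated tumor 1 shared 8.02% with spleen 1 and 8.36% with spleen 2. For CDR3 with none of the 4 motifs it was 6.71% and 3.17%, and 5.48% and 4.31%. The spleens shared 343 members, 9.53% of those of spleen 1 and 6.52% of those of spleen 2, beside 9.74% and 6.82% of the CDR3 with none of the 4 motifs.

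Members of a tumor were more often found in any other library than the CDR3 with none of the 4 motifs. Members of a spleen were not, when the other spleen was counted too. The share was 17.4% against 11.6% in treated tumor 1, 16.5% against 12.4% in treated tumor 2, 20.4% against 14.9% in distant tumor 1 and 26.1% against 19.0% in distant tumor 2. In the spleens it was 11.5% against 11.5% and 8.66% against 8.68%, and these values rest largely on the other spleen (9.53% against 9.74%, and 6.52% against 6.82%). In the treated and distant tumor of the same number, members of spleen 1 were found in 1.31% against 1.01% and 1.64% against 1.28%. For members of spleen 2 it was 0.666% against 0.513% and 1.48% against 1.49%. Over 6 libraries the difference of 3.76 percentage points (16.8% ± 6.25 against 13.0% ± 3.55, SD, n = 6) was positive in 4 and did not pass (exact sign-flip permutation test, two-sided, p = 0.125, adjusted p = 0.125). It passed for DRG alone (5.22, exact permutation adjusted p = 0.0469, n = 6) and when the other CDR3 were weighted to the lengths of the members (5.28, exact permutation adjusted p = 0.0469, n = 6). Without near variants it was 5.73 (exact permutation adjusted p = 0.075, n = 6). Against D-beta-2 type clonotypes, the members' share found elsewhere was lower in 4 of 6 libraries, with a mean difference of -1.59 percentage points (SD 2.07).

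**Figure D5:**
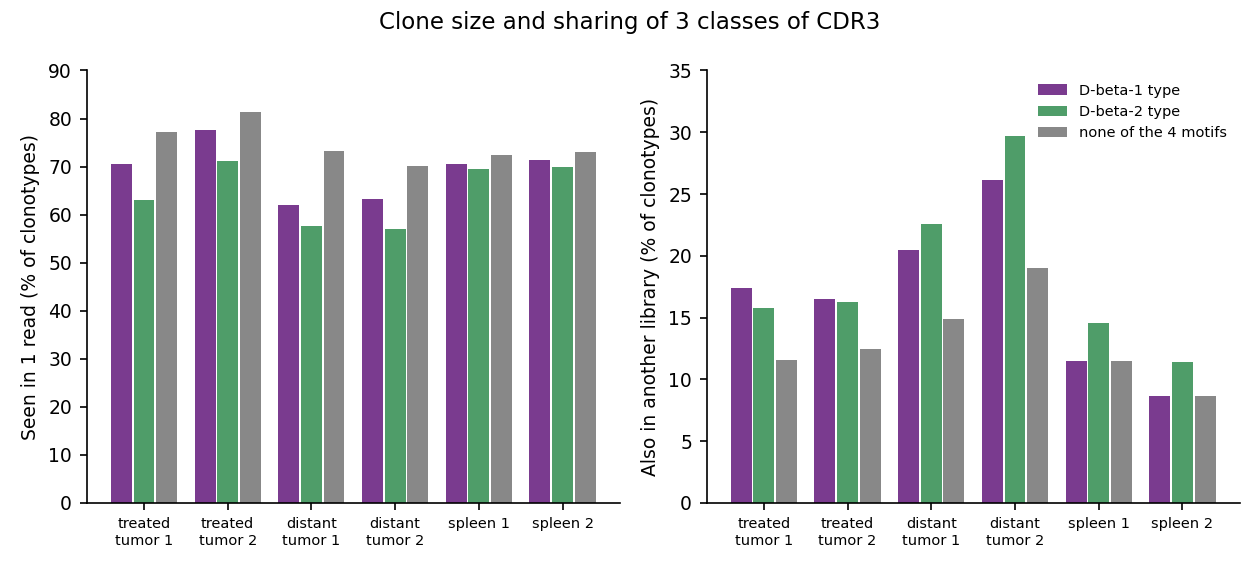
Percent of clonotypes seen in 1 read (left) and percent also found in another library (right) for D-beta-1 type, D-beta-2 type and other CDR3 in each library. In every library members were seen in 1 read less often than CDR3 with none of the 4 motifs. Their lead in sharing with any other library, 4.10 to 7.11 percentage points in the tumors, was absent in the spleens, whose main partner is the other spleen.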

How the data were processed

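T cell receptor β chain repertoires of 6 libraries (treated tumor, distant tumor and spleen, 2 each) were analysed. Per the file headers, each deposited file lists a V gene, a J gene, the CDR3 amino acids, a read count and a percent. The counts, deposited by the authors, are whole numbers of reads with no normalization, and the percent values are read shares that the authors rounded to 2 decimals, not used here. Per the labels' protocols, adaptor-ligated cDNA was amplified with constant region primers and sequenced on a MiSeq. How V and J genes were assigned and errors handled was not given in the sources used here.

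Marked CDR3 were left out, and motifs were searched from position 5. Germline ends of V and J genes were translated from GENCODE M21 transcripts, and all 23 V and 12 J genes matched. Shares were compared with exact permutation tests over libraries, two-sided. Differences within libraries were tested by exact sign flips, Benjamini-Hochberg adjusted over 6 results. Stretches of 3 residues were tested with edgeR 4.0.16 (glmQLFTest, filterByExpr, library size set to reads without marks) and DESeq2 1.42.0 in R 4.3.3, and clonotypes with at least 10 reads with Fisher's exact test (SciPy 1.17.1). The edgeR step was tested on simulated counts for treated against distant tumors, and DESeq2 was not. Named clonotypes are the 5 members with the most reads per library and those in 5 or more libraries, and named V genes are the 3 highest, the 3 lowest and those with a germline D.

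The series describes 2 mice, and libraries with 1 number were taken to come from 1 mouse. Deviations from the group means over 879 stretches with at least 10 reads in every library correlated with r = 0.261 (treated and distant tumor), 0.104 (treated tumor and spleen) and 0.151 (distant tumor and spleen). Members, lists and tests were chosen with earlier results of these data known, and the near variants after seeing them. Alternatives covered the motif rule, read minimum, depth, scaling and each library left out.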

Additional observations from a re-analysis of the deposited data

Results flagged for a closer look

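The share of clonotypes found in another library, D-beta-1 type minus CDR3 with none of the 4 motifs, was positive in each tumor and all but absent in the spleens. For a spleen this share rests largely on the other spleen, as given above. It was 5.84 percentage points in treated tumor 1, 4.10 in treated tumor 2, 5.53 and 7.11 in the distant tumors of numbers 1 and 2, and it was -0.0257 in spleen 1 and -0.0231 in spleen 2. The tumor mean of 5.65 ± 1.24 (SD, n = 4) exceeded the spleen mean of -0.0244 ± 0.00186 (SD, n = 2) by 5.67 (exact two-sided permutation p = 0.0667, the smallest that 4 against 2 can give). Without near variants the difference between tumors and spleens was 8.51 (exact two-sided permutation p = 0.0667), with spleen values of -0.0151 and 0.132. The near variant rule acts almost only in the tumors, so the rise from 5.67 to 8.51 cannot be told apart from the filter. The libraries also differ in depth, and at an equal depth of 42320 reads the members' share against that of the CDR3 with none of the 4 motifs was 18.1% against 11.6%, 14.0% against 11.2%, 20.2% against 15.1% and 18.6% against 13.4% in treated 1, treated 2, distant 1 and distant 2, and 7.69% against 7.93% and 7.55% against 7.79% in the spleens.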

How the results depend on the processing

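The shares of clonotypes, tumors minus spleens (-1.16 to -0.852 with 1 library left out), and of reads, treated minus distant (1.39 to 3.69), kept their direction in every alternative run. The read share, tumors minus spleens, ran from -0.917 to 0.440 with 1 library left out and was 0.0158 with motifs anywhere in the CDR3, 0.577 for GQG alone and 0.766 without the 10 most abundant clonotypes. The clonotype share, treated minus distant, was -0.188 for DRG alone and -0.0325 without near variants.

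With motifs anywhere, the TRBJ1 difference was 40.6 (against D-beta-2 type) and 8.46 (against the other CDR3), the 1-read difference -5.06 and the length difference 0.539, all short of an adjusted p of 0.05. With at least 2 reads, TRBJ1 (44.0 and 12.0) and length (0.660) also lost the call, as did TRBJ1 (41.6 and 9.44), the 1-read share (-7.48) and length (0.606) without near variants, and TRBJ1 against the other CDR3 for DRG alone (7.15). With 5 libraries no sign-flip test can go below 0.0625, so every call was lost there by construction, at 39.2 to 43.8 and 8.03 to 10.8 (TRBJ1), -6.10 to -4.16 (1 read) and 0.610 to 0.649 (length). The sharing difference passed for DRG alone (5.22) and with matched lengths (5.28). The DRG difference by V gene was -0.689 with motifs from position 6, a rule that removes unequal parts of the V gene groups compared.

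At least 50 reads left 29 and 23 members called by Fisher's test. Stretches called between treated and distant tumors numbered 52 with DESeq2 and 82 without a filter on low counts. Between tumors and spleens they numbered 11 and 178, and 266 with clonotypes counted once (339 without near variants). The log2 change of DRG between treated and distant tumors was -0.15 and -0.26 with clonotypes counted once (the latter without near variants), and -0.086 to 0.68 with 1 library left out. That of GQG between tumors and spleens was -0.26 and -0.44, and -0.0047 to 0.35 with 1 library left out. With TMM and DESeq2, GQG was at 1.17 and 1.20 and DRG at 0.49 and 0.52. The cause of these changes was not tested.

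With a replicate block, the treated minus distant differences were 2.54 for reads and 0.598 for clonotypes (exact sign-flip p = 0.5, the smallest for 2 pairs), and 0 stretches were called by reads in either contrast. With clonotypes counted once and the block, 163 stretches were called between tumors and spleens, DRG and GLG no longer among them, and the log2 changes of DRG between treated and distant tumors and of GQG between tumors and spleens were -0.16 and -0.26. Depth limits the 1-read share and sharing, since most clonotypes had 1 read.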

Other observations

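CDR3 that held a D-beta-1 and a D-beta-2 motif together were rare and were left out of the comparisons. There were 106 distinct clonotypes of this kind (0.0597% of 177503), beside the 43 members that held GQG and DRG.

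GTG, which the first frame of either D gene encodes, was in 8976 distinct clonotypes that held none of the other 4 motifs, and G followed it in 38.9% of them. Over all CDR3 with GTG, its share of the reads without a mark was 4.21% ± 1.23 in the treated tumors, 4.30% ± 2.44 in the distant tumors and 5.48% ± 0.0873 in the spleens (SD, n = 2 each). Unlike GQG, it showed no common direction between treated and distant tumors, at 5.08% and 3.34% in treated tumors 1 and 2 against 2.57% and 6.03% in distant tumors 1 and 2. GLG, a D-beta-2 motif, was like GQG higher in treated tumors 1 and 2 (2.25% and 4.87%) than in distant tumors 1 and 2 (1.16% and 1.78%).

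Of the 8 members in 4 libraries, TRBV15/TRBJ2-7 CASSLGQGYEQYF had 239 reads in treated tumor 1, 13 in distant tumor 1 and 1 each in distant tumor 2 and spleen 2. TRBV13-2/TRBJ2-4 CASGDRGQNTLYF had 27 and 95 reads in the treated tumors, 0 in either distant tumor and 7 in each spleen. These were singled out after their values were seen.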
